A study of Mus musculus with 2 samples.

Results

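The cells described here are 50 macrophage-like cells found among 6321 cells that were sorted as blood progenitors. A cell was taken when it had under 40 *Cpa3* UMIs per 10,000, at least 20 UMIs per 10,000 of *Lyz2*, *Ctss* and *Spp1* together, and under 5 of *Mpo* and *Prtn3* together, where a UMI (unique molecular identifier) counts 1 captured transcript. In the Em-Ex library 29 of 3452 cells met the rule, 0.840% (0.563% to 1.20%). In the YS-Ex library 21 of 2869 did, 0.732% (0.454% to 1.12%). These are exact Clopper-Pearson 95% intervals of counting error. They overlap, and no difference between the libraries in this share was detectable at this depth.

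The study asked whether the early embryo and the yolk sac can each form definitive hematopoietic stem cells in culture. Em-Ex were explants of intraembryonic tissue and YS-Ex were explants of yolk sac, both from C57/BL6 mouse concepti at E8.5 with 5 to 7 somite pairs (Theiler stage 12). The same concepti, pooled, gave both kinds of explant. Both were cultured for 10 days at the air-liquid interface with 20% fetal calf serum and with SCF, IL-3 and FLT3 ligand, each at 100 ng/ml, and were then dissociated with collagenase. Cells of the surface phenotype CD31+CD45+c-Kit+CD41- were isolated by flow cytometry. For each condition 8600 of them were loaded for 1 10x library, and the libraries were sequenced together. No animal or culture can therefore serve as a replicate, no test was run, and every interval below covers counting error only.

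Macrophages are phagocytes that engulf dying cells and microbes and digest them in lysosomes. They depend on the receptor Csf1r and on transcription factors such as PU.1 (gene *Spi1*), and the yolk sac is the first site in the embryo that makes them. They sense and scavenge through Fc, complement and scavenger receptors, and release chemokines and the complement factor C1q.

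The chosen cells were compared with 5129 Cpa3-high cells (40 or more *Cpa3* UMIs per 10,000), which carry the mast cell protease gene *Cpa3* and made up 81.1% of the cells. The other cells with low *Cpa3* were 290 with *Mpo* and *Prtn3* at or over the limit and 852 with none of these genes at or over its limit. Median depth was 12222 UMIs and 3015 genes in the macrophage-like cells and 10459 UMIs and 2526 genes in the Cpa3-high cells. No barcode of a macrophage-like cell was found in both libraries. In each library a gene had UMIs in at least 30 barcodes or was listed at 0, so genes listed at 0 in YS-Ex alone were not compared between libraries. They stayed in the comparison with Cpa3-high cells, where their pooled levels rest on Em-Ex alone. A gene confined to the 29 or 21 macrophage-like cells of a library would be under 30 barcodes there and be listed at 0.

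**Figure D1:**
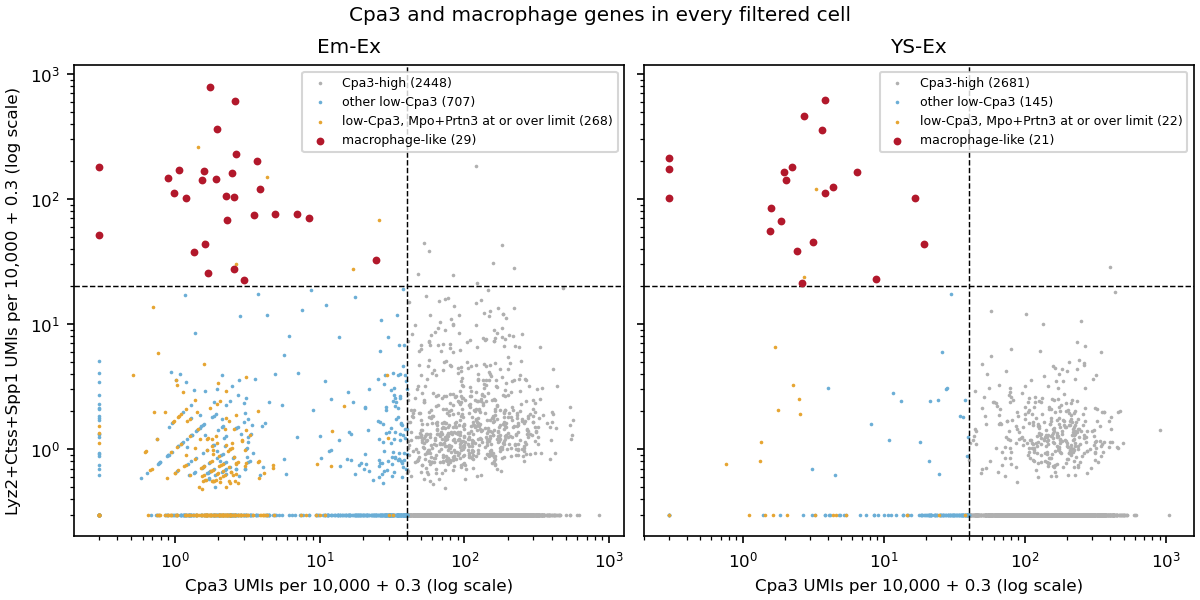
Each point is a filtered cell. The x axis gives *Cpa3* and the y axis gives *Lyz2*, *Ctss* and *Spp1* together, in UMIs per 10,000 plus 0.3 on log scales, in Em-Ex (left) and YS-Ex (right); dashed lines are the limits of the rule. The 29 and 21 macrophage-like cells (red) lie in the upper left, and 10 cells lie in the upper right with both gene groups over their limits.

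The rule fixed *Cpa3*, *Lyz2*, *Ctss*, *Spp1*, *Mpo* and *Prtn3*, so their values only describe the choice. The 3 cells nearest the *Lyz2*, *Ctss* and *Spp1* limit from above had 21.1, 22.4 and 22.6 UMIs per 10,000, and the 3 nearest from below had 18.7, 18.4 and 17.2. The limit cut through a thin tail: 12 cells that met the rest of the rule had 10 to 20, 8 chosen cells had 20 to 40, and 42 had 40 or more. For *Cpa3*, the highest chosen cell had 24.3 per 10,000 and the nearest cell beyond the limit had 47.9. For *Mpo* and *Prtn3* together, the highest chosen cell had 2.30 and the nearest excluded cell had 5.24.

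*Lyz2*, the gene for lysozyme of phagocytes, was found in 46 of the 50 cells. It ranged from 0 to 324 UMIs per 10,000 in Em-Ex (median 40.6) and from 0 to 461 in YS-Ex (median 27.4). *Ctss*, the gene for the lysosomal protease cathepsin S, was found in 45 cells, with medians of 13.8 in Em-Ex and 16.4 in YS-Ex. *Spp1*, the gene for the secreted protein osteopontin, was uneven: it had UMIs in 25 of 29 Em-Ex cells but 9 of 21 YS-Ex cells, and 34.8% of its 6110 UMIs came from 1 cell. All 3 genes were found together in 29 cells. In 3 cells neither *Lyz2* nor *Ctss* had a UMI, and *Spp1* alone put them over the limit.

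Genes that the rule did not use describe the same cells more fully, although they were measured in the cells that the rule cut and so carry no test. Of 5557 genes with at least 20 UMIs per 1000000 (counts per 1000000 UMIs, CPM) in the pooled macrophage-like or Cpa3-high cells, 491 (8.84%) were at least 4-fold higher in the macrophage-like cells and 244 (4.39%) at least 4-fold lower. The median log2 ratio over the compared genes was 0.05. A gene that reached this minimum only through the cells where it was high had to differ, so counts over a list are read with the number of such genes beside them. Of 22 macrophage genes outside the rule, 18 were at least 4-fold higher and none was 4-fold lower, but 15 reached the minimum only through the macrophage-like cells, and of the 7 over it on both sides 3 were 4-fold higher. The 14 mast cell genes compared, *Cpa3* left out, were at least 4-fold lower, and 7 of them reached the minimum only through the Cpa3-high cells.

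The label was checked cell by cell with the 22 genes of the macrophage list that the rule left out. A macrophage-like cell had UMIs of 15 of them at the median, with a range of 3 to 21, and a Cpa3-high cell had UMIs of 4, with a range of 2 to 18.

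The mannose receptor gene *Mrc1*, an endocytic receptor of tissue macrophages, had the highest ratio to Cpa3-high cells among the 25 macrophage genes. It ranged over the 50 cells from 0 to 18.8 UMIs per 10,000 with a median of 1.01, and had UMIs in 28 cells. Pooled, it was at 465 CPM (418 to 516) against 0.625 CPM, a ratio of 744 (531 to 1069). *Msr1*, another scavenger receptor, was at 188 CPM in 30 cells with a ratio of 233 (167 to 329), and *Trem2*, a lipid-sensing receptor of phagocytes, was at 490 CPM in 40 cells with a ratio of 146 (123 to 174). Few Cpa3-high cells had a UMI of these receptors, 0.526% for *Mrc1* and 3.22% for *Trem2*. Of 8 scavenger and phagocytic receptor genes compared, the 6 that reached the minimum only through the macrophage-like cells were at least 4-fold higher, and *Scarb1* and *Scarb2*, over it on both sides, were within 4-fold.

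The shares were also compared at matched depth. With every cell thinned to 2000 UMIs, which left out no cell, *Mrc1* was found in 34% of macrophage-like cells and 0.0975% of Cpa3-high cells. *Lyz2* was found in 86% and 2.81%, *Ctss* in 72% and 0.936%, and *Csf1r* in 26% and 0.526%. Before thinning, *Csf1r* was found in 70% and 2.83%.

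Promoter sequence is shown for 3 of the genes with high ratios, *Mrc1*, *Spp1* and *Ctss*, as the 250 bases before an annotated start of each gene on GRCm38.p6 (RefSeq). They were picked because the letters GAGGAA, the core that PU.1 commonly binds, occur in them on either strand, and these letters are in capitals (TTCCTC is the same motif on the other strand). The regions are chr2:14229164-14229413, chr5:104434861-104435110 and chr3:95526536-95526785, each on the plus strand.
Mrc1: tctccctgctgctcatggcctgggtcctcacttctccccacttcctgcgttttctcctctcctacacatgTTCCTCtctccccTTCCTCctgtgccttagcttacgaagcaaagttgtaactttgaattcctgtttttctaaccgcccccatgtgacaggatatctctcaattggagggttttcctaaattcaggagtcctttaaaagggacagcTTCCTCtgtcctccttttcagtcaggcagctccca
Spp1: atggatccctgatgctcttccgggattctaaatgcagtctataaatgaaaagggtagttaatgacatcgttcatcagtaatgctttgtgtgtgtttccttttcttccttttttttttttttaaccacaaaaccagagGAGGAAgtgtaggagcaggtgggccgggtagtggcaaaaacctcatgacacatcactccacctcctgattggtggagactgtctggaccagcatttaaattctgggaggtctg
Ctss: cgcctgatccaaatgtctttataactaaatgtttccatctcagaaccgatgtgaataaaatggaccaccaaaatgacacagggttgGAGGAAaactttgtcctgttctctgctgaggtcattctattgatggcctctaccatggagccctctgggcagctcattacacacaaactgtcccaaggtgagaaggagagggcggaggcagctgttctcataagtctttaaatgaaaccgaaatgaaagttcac
*Mrc1* held 3 such stretches, at 180, 167 and 35 bases before the start, *Spp1* held 1 at 113 and *Ctss* 1 at 164. *Spp1* has another annotated start further along, whose 250 bases held none. The first bases from the *Spp1* start shown matched 0 GENCODE transcripts of the gene, and those from this other start matched 1. The starts shown for *Mrc1* and *Ctss* matched 1 and 2. The motif was in 28.3% of all 32851 promoter windows of 300 bases in the RefSeq table. *Spp1* and *Ctss* are genes of the rule, and nothing is read from the number of these promoters that hold the motif. A match of 6 letters is a description of the sequence and not a binding site.

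Among transcription factors, the macrophage regulator *Maf* was at 210 CPM in 30 cells, a ratio of 91.9 (72.7 to 116). *Irf8*, a factor of monocytes and dendritic cells, was at 128 CPM with a ratio of 49.9 (38.3 to 64.8), but it was also at 82.9 CPM in the 290 cells with *Mpo* and *Prtn3*. *Spi1* was found in 46 cells at 330 CPM, with a ratio of 3.19 (2.80 to 3.62), and 65.8% of Cpa3-high cells also had a UMI of it. The mast cell and progenitor factor *Gata2* was lower, at 50.2 CPM against 643 CPM. In all, 7 of 17 transcription factor genes were at least 4-fold higher, 2 (*Gata2* and *Gata1*) at least 4-fold lower and 8 within 4-fold. Of the 17, 8 reached the minimum only through the macrophage-like cells. Of the 8 over it on both sides, none was 4-fold higher and 1 was 4-fold lower.

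Receptors for growth factors differed in both directions, with 8 of 17 cytokine receptor genes at least 4-fold higher, 3 at least 4-fold lower and 6 within 4-fold. Of the 17, 6 reached the minimum only through the macrophage-like cells. Of the 11 over it on both sides, 2 were 4-fold higher and 3 were 4-fold lower. *Csf1r*, the receptor for the main macrophage growth factor, ranged from 0 to 6.49 UMIs per 10,000 with a median of 1.19 and was at 196 CPM (165 to 230), a ratio of 58.3 (46.8 to 72.3). *Kit*, the receptor for the SCF in the medium and the target of the sort, had UMIs in 13 of the 50 cells and 97.4% of Cpa3-high cells, at 71.4 CPM (53.6 to 93.1) against 705 CPM. At 2000 UMIs per cell its shares were 4% and 68.0%. Of the *Kit* UMIs in the macrophage-like cells, 44.4% sat in 1 cell. By library, *Kit* was at 55.6 against 347 CPM in Em-Ex and 94.5 against 1041 CPM in YS-Ex. Of the other sorted proteins' genes, *Ptprc* (CD45) was at 114 CPM with a ratio of 1.45 (1.16 to 1.80) and *Pecam1* (CD31) at 54.2 CPM with a ratio of 1.02 (0.727 to 1.38). *Itga2b* (CD41) had UMIs in 2 cells. The IL-3 receptor gene *Il3ra* had UMIs in 15 cells at 23.8 CPM, and *Il1rl1*, the IL-33 receptor of mast cells, was at 76.6 CPM against 748 CPM with 46.6% of its UMIs in 1 cell.

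Receptors for antibodies and complement were mixed, with 6 of 11 Fc receptor and adaptor genes at least 4-fold higher and 5 within 4-fold. Of the 11, 5 reached the minimum only through the macrophage-like cells. Of the 6 over it on both sides, 1 was 4-fold higher. The signalling adaptors *Tyrobp* and *Fcer1g* had UMIs in 50 and 49 cells, but were at 0.796 (0.760 to 0.835) and 0.775 (0.738 to 0.814) times their Cpa3-high level, so these genes of the macrophage list were within 4-fold. The high-affinity IgG receptor gene *Fcgr1* was at 226 CPM in 35 cells with a ratio of 88.6 (70.9 to 111), and *Fcgr4* was at 151 CPM in 35 cells with a ratio of 69.9 (53.9 to 90.5). The C5a receptor gene *C5ar1* was found in 42 cells with a ratio of 32.2 (27.0 to 38.2). The integrin gene *Itgam* (CD11b), which is part of a complement receptor, was at 164 CPM with a ratio of 178 (129 to 248). *Cx3cr1*, a microglia and monocyte receptor, was at 31.7 CPM with 75% of its UMIs in 1 cell, a ratio of 0.701 (0.448 to 1.05).

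Of 14 chemokine genes in the table, the 12 with at least 20 CPM on either side were at least 4-fold higher. Of these, 9 reached the minimum only through the macrophage-like cells and so had to be higher, and *Ccl3*, *Ccl6* and *Ccl9* were over it on both sides. The other two went under that minimum: *Ccl17* had no UMI in the 50 cells but UMIs in 12.7% of Cpa3-high cells, and *Cxcl10* had UMIs in 3 cells. The summed level of the 14 chemokine genes was 102 UMIs per 10,000 at the median macrophage-like cell (0.830 to 469) and 0.349 at the median Cpa3-high cell. *Ccl6* had UMIs in 46 cells, a range of 0 to 325 per 10,000, a median of 39.8 and 6375 CPM pooled, a ratio of 276 (260 to 293). *Ccl2* and *Ccl7*, which attract monocytes, were narrower, with UMIs in 30 and 26 cells and ratios of 109 (99.9 to 119) and 112 (99.0 to 127). *Pf4* had UMIs in 24 cells, with 38.3% of its UMIs in 1 cell. *Ccl8* and *Ccl5* rested on 1 cell each, which held 64.0% and 74.6% of their UMIs.

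Genes of lysosomes were graded. *Ctsb*, *Ctsl* and *Lgmn*, which encode lysosomal proteases, were at 4295, 4105 and 1015 CPM, with ratios of 33.9 (32.6 to 35.4), 142 (134 to 151) and 78.3 (70.8 to 86.6). *Atp6v0d2*, a subunit of the proton pump in macrophages and osteoclasts, was at 449 CPM with a ratio of 114 (96.5 to 135). *Ctsd* and *Cd63* were within 4-fold and had UMIs in 99.3% and 97.3% of Cpa3-high cells, whose granules are lysosome-related. With *Ctss* of the rule left out, 12 of 21 lysosome genes were at least 4-fold higher and 9 were within 4-fold, and of the 17 over the minimum on both sides 8 were 4-fold higher.

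The 10 lipid-handling genes compared were at least 4-fold higher. Of these, 5 reached the minimum only through the macrophage-like cells, and *Fabp5*, *Apoe*, *Plin2*, *Soat1* and *Abcg1* were over it on both sides. *Soat1*, which esterifies cholesterol, had a ratio of 4.19 and fell under 4-fold in 6 of 18 alternative settings. The fatty acid binding protein gene *Fabp5* was at 10403 CPM, with UMIs in 46 cells, a range of 0 to 415 per 10,000 and a median of 77.7. *Lpl*, which encodes lipoprotein lipase, was at 700 CPM in 36 cells with a ratio of 513 (406 to 654). *Apoe*, the apolipoprotein that carries lipid out of macrophages, was at 2363 CPM and had UMIs in 33 cells. *Gpnmb*, a glycoprotein of lipid-laden phagocytes, was at 1674 CPM in 32 cells with a ratio of 309 (274 to 350). The ferritin genes *Fth1* and *Ftl1*, which store iron, were in all 50 cells at ratios of 7.97 (7.86 to 8.08) and 3.50 (3.46 to 3.55).

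Of 6 genes of alternative activation, the programme that IL-4 induces in macrophages, 2 were at least 4-fold higher and 4 were within 4-fold. Of the 6, 2 reached the minimum only through the macrophage-like cells. Of the 2 over it on both sides, none was 4-fold higher. The IL-4 receptor gene *Il4ra* was within 4-fold, at 78.0 CPM in 27 cells with a ratio of 1.19 (0.906 to 1.54). *Retnla* and *Chil3* were not analysed here. Genes for antigen presentation were higher in 5 of 7, of which 3 reached the minimum only through the macrophage-like cells, and *B2m* stood at the 4-fold limit with a ratio of 4.01 (3.88 to 4.15). Of the class II genes, *Cd74* had UMIs in 21 cells and *H2-Ab1* in 6. None of 13 S phase and 13 G2/M genes differed by 4-fold, and *Mki67* had UMIs in 12 cells.

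**Figure D2:**
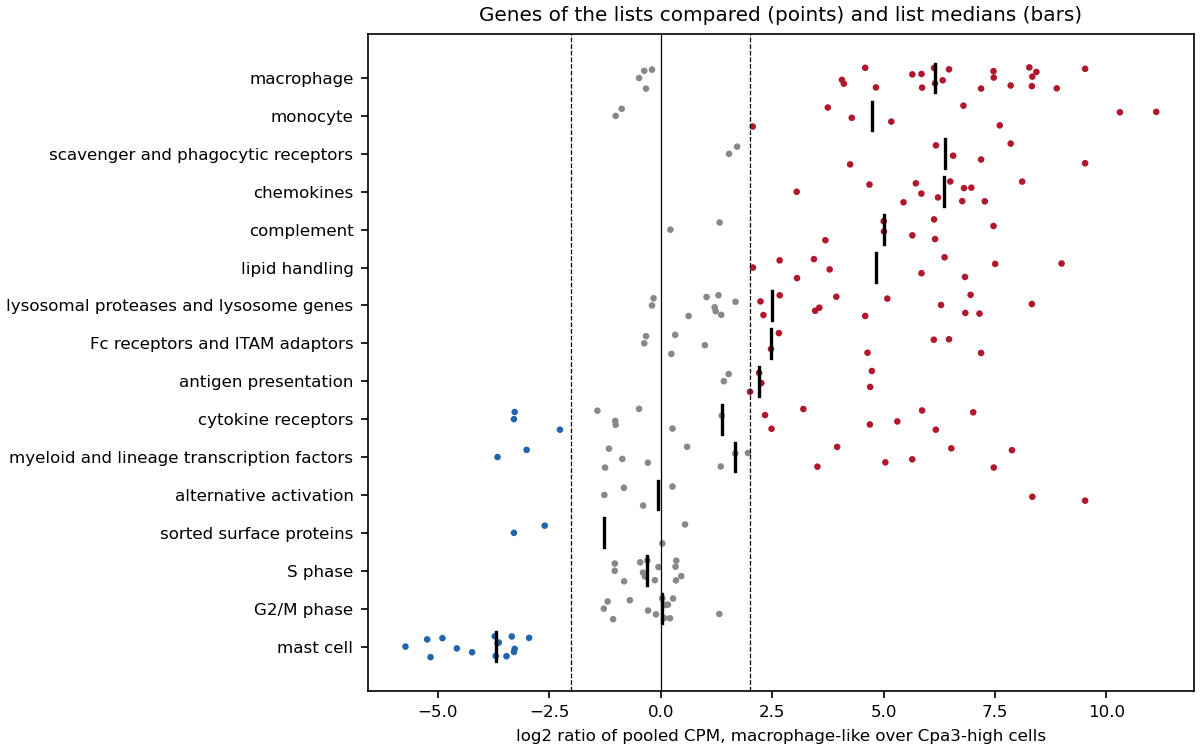
Each point is a gene with at least 20 CPM in the macrophage-like or Cpa3-high cells, on the x axis by its log2 ratio of pooled CPM and in rows by list; black bars are list medians, dashed lines mark 4-fold, red is at least 4-fold higher and blue at least 4-fold lower. Chemokines and lipid-handling genes, many of them over the minimum only through the macrophage-like cells, lie to the right of the upper limit, mast cell genes lie to the left of the lower limit, and the S and G2/M phase lists lie within both.

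The macrophage-like cells were not uniform. *S100a8* and *S100a9*, which encode the calprotectin subunits that neutrophils and some monocytes hold in bulk, were split without intermediates: 6 cells had 1463 or more UMIs per 10,000 of both together and the other 44 had 8.12 or fewer. Over the 50 cells *S100a8* and *Spp1* had the same number of UMIs, 6110, but *Spp1* had UMIs in 1 of the 6. The 6 S100a8/S100a9-high cells were 1 of 29 in Em-Ex (3.45%, 0.0873% to 17.8%) and 5 of 21 in YS-Ex (23.8%, 8.22% to 47.2%), with overlapping intervals. The rest were split by their summed *C1qa*, *C1qb* and *C1qc*, at 5 UMIs per 10,000, a limit set after the values were seen. This gave 24 C1q-positive cells, 18 in Em-Ex and 6 in YS-Ex, and 20 other cells, 10 in each library.

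**Figure D3:**
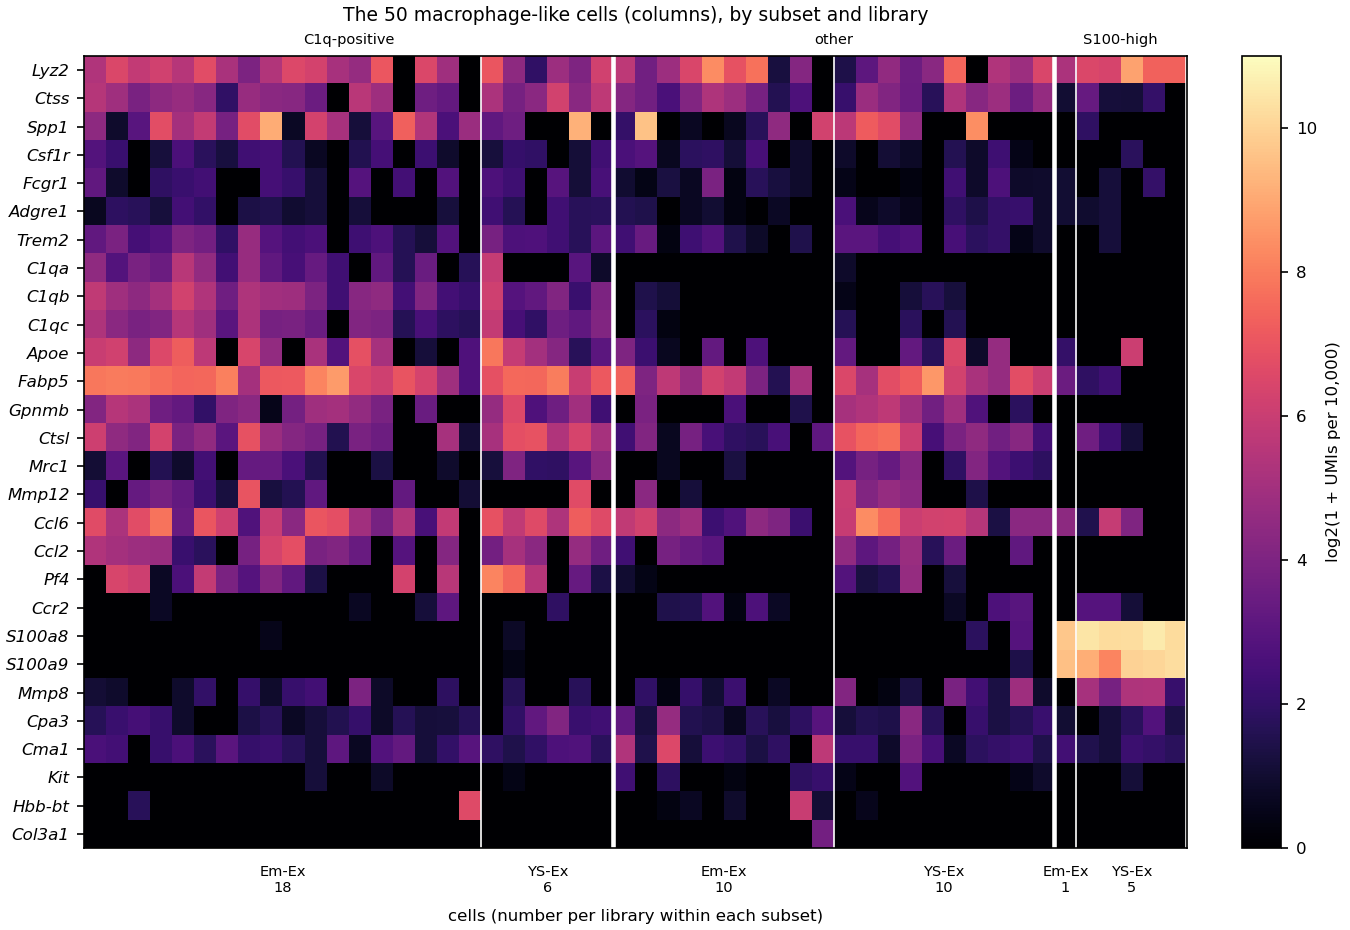
Columns are the 50 macrophage-like cells, ordered by subset, library and first principal component, and rows are genes; colour gives log2(1 + UMIs per 10,000). *S100a8* and *S100a9* fill the last 6 columns, the C1q genes are highest in the first 24, and *Cma1*, *Hbb-bt* and *Col3a1* are high in 5 Em-Ex cells.

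The 6 S100a8/S100a9-high cells matched the macrophage label least, and they are called here by their genes. They had UMIs of 7.5 of the 22 macrophage genes outside the rule at the median (5 to 9), against 18 (10 to 21) in the C1q-positive cells and 14 (3 to 19) in the others. Without the 3 C1q genes, which made that split, the medians over 19 genes were 7.5, 16 and 14. *Csf1r* had UMIs in 1 of the 6 and *Adgre1* in 3. No UMI of *Gpnmb*, *Mrc1*, *Mmp12* or any C1q gene was found in them. *Lyz2* was what put them over the limit, with 36.7 to 461 UMIs per 10,000, while *Ctss* had 0 to 9.36. Their depth was 3272 to 12050 UMIs, with a median of 8914. The medians were 11719.5 in the C1q-positive cells and 15010.5 in the others, and these gene counts were not made at matched depth.

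Compared with the other 44, 57 of 839 genes (6.79%) were at least 4-fold higher in the 6 cells, *S100a8* and *S100a9* that made the split among them, and 72 (8.58%) at least 4-fold lower, among genes of at least 200 CPM in either subset. *Mmp8*, the neutrophil collagenase gene, had UMIs in 5 of 6 cells with a median of 22.8 per 10,000, at 1823 CPM and a ratio of 5.20 (4.06 to 6.62). The RIKEN transcript *2010005H15Rik* was in all 6 at a median of 93.1 per 10,000, with a ratio of 42.9 (35.0 to 52.9), and *Plac8*, a gene of monocytes and granulocyte precursors, was in all 6 with a ratio of 6.52 (4.85 to 8.69). *Pglyrp1*, an antimicrobial granule protein gene, was in 5 cells, but 1 cell held 84.1% of its UMIs. *Stfa1*, which is listed at 0 in YS-Ex, was at 219 per 10,000 in the 1 Em-Ex cell. *Gpnmb* and *Ccl2* were at least 30.9-fold and 30.7-fold lower, with a floor of 3 counts over the 6 cells. Of the 20 genes on the neutrophil list, 10 were in the table. *Elane*, *Ctsg*, *Cxcr2* and *Csf3r* are listed at 0 in YS-Ex, which holds 5 of these cells, and the 1 Em-Ex cell had no UMI of them.

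In the C1q-positive cells *C1qb* ranged from 3.39 to 75.6 UMIs per 10,000 (median 17.2) and *Apoe* from 0 to 237 (median 26.8). *Apoe*, *Pf4*, *Ccl12* and *Ms4a7* were higher than in the 20 other cells, by 6.38 (5.60 to 7.29), 11.1 (9.23 to 13.4), 5.17 (4.37 to 6.15) and 7.74 (4.19 to 15.6). Such differences were few: 12 of 758 genes (1.58%) were at least 4-fold higher, 3 of them the C1q genes that made the split, and 4 (0.528%) at least 4-fold lower. The 4 that were lower, *Hdc*, *Furin*, *Tpsb2* and *Cma1*, include 3 mast cell genes. In the 20 other cells, 3 cells high in *Cma1* held 84.4% of the *Hdc* UMIs, 41.6% of *Furin*, 67.2% of *Tpsb2* and 75.9% of *Cma1*. *Csf1r* had medians of 2.00 and 0.868 per 10,000, and the ranges overlapped.

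The 20 other cells held several kinds of profile. *Spp1* reached its highest level here, 767 UMIs per 10,000, in an Em-Ex cell. The monocyte gene *Ly6c2* was at 19.2 per 10,000 in 1 Em-Ex cell with 324 of *Lyz2*, and had UMIs in 3 of the 50 cells, but it is listed at 0 in YS-Ex. *Ccr2*, the receptor that brings monocytes into tissue, had UMIs in 9 of the 20 and 5 of the 24 C1q-positive cells. It had UMIs in 34% of the 50 cells and in 50.4% of Cpa3-high cells, or 16% and 26.7% at 2000 UMIs per cell, and pooled levels were 118 and 238 CPM. *Gpnmb* was between 0 and 52.3 with a median of 2.18, against 13.2 in the C1q-positive cells.

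Some cells carried genes of other lineages. *Cma1*, a mast cell chymase gene, was at 93.8, 51.5 and 39.9 UMIs per 10,000 in 3 Em-Ex cells, against a median of 3.10 over the 50. The adult beta globin gene *Hbb-bt* was at 99.3 and 63.5 per 10,000 in 2 others, and *Col3a1*, a collagen gene of connective tissue, was at 12.3 in 1 of the 3 with *Cma1* and is listed at 0 in YS-Ex. Of these 5 cells, the 2 with no *Lyz2* or *Ctss* were chosen by *Spp1* alone. Without the 5 cells, 521 genes were at least 4-fold higher and 279 at least 4-fold lower than in Cpa3-high cells. Their depth was 8860 to 33690 UMIs, and the part of doublets in these profiles was not tested. Over the macrophage-like cells with a UMI of *Xist* or of a Y-chromosome gene, 5 of 41 had both, 12.2% (4.08% to 26.2%), against 207 of 4690 Cpa3-high cells, 4.41% (3.84% to 5.04%). The intervals overlap and cover counting error only. The deepest of the 50, a YS-Ex cell with 40337 UMIs, had 18.8 *Cpa3*, 14.4 *Cma1*, 5.95 *Kit* and 6.69 *Il1rl1* UMIs per 10,000, the highest *Kit* and *Il1rl1* of the population. These cells were picked after their values were seen.

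The most abundant mast cell transcripts were found at a low level in most of the 50 cells, and most other mast cell genes in few. *Cpa3* had UMIs in 45 and *Cma1* in 48, but at 400.4 CPM (357 to 448) and 859 CPM (794 to 928) against 15135 and 16135 CPM. Single cells weighed on these sums: 1 cell held 48.6% of the *Cma1* UMIs and 27.1% of those of *Cpa3*. In the 290 cells with *Mpo* and *Prtn3*, also under the *Cpa3* limit but deeper (median 25312 against 12222 UMIs), 95.5% had a UMI of *Cpa3* and 97.9% of *Cma1*. The medians there were 1.64 and 2.23 UMIs per 10,000, against 2.07 and 3.10 in the macrophage-like cells. The part of free RNA in these levels was not tested. Of the 14 mast cell genes outside the rule, 3 (*Cma1*, *Srgn* and *Tpsb2*) had UMIs in at least 40 of the 50 cells, *Hdc* in 25 and the other 10 in 13 or fewer. Among genes with at least 200 CPM in Cpa3-high cells, *Mcpt4*, *Cpb1* and *Grm6* had the lowest ratios, being 54.9-fold, 47.8-fold and 42.4-fold higher there, with 13, 4 and 4 UMIs in the macrophage-like cells. Of the 13 *Mcpt4* UMIs, 11 sat in 1 Em-Ex cell, one of the 3 with high *Cma1*. Without that cell the fold was 353 (97.6 to 2911), and without the Em-Ex cell that held 2 of the 4 *Grm6* UMIs it was 81.0 (22.4 to 669) for *Grm6*; leaving these cells out was chosen after the values were seen. In the other direction, *Lyz2* had UMIs in 10.5% of Cpa3-high cells and *Ccl6* in 11.8%. Of the Cpa3-high *Lyz2* UMIs, 12.5% sat in the 10 cells (9 Em-Ex, 1 YS-Ex) that passed both limits, as did 20.5% of the *Spp1* UMIs.

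Em-Ex and YS-Ex cells were set side by side without the S100a8/S100a9-high cells, as 28 and 16 cells of 1 library each. Tissue, culture, library and cell mixture cannot be told apart in this comparison. Of 772 genes with at least 200 CPM in either, 7 (0.907%) were at least 4-fold higher in Em-Ex and 11 (1.42%) in YS-Ex. The median log2 ratio, Em-Ex over YS-Ex, was 0.12 over all of them.

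*Mrc1* was higher in YS-Ex. It ranged from 0 to 9.22 UMIs per 10,000 in Em-Ex, with UMIs in 13 of 28 cells, and from 0 to 18.8 in YS-Ex, with UMIs in 15 of 16 cells. The ranges overlapped, and the medians were 0 and 6.29. Pooled levels were 191 and 1012 CPM, 5.30-fold higher in YS-Ex, and the Cpa3-high cells of the libraries had 0.577 and 0.671 CPM. Within the C1q-positive cells the medians were 1.01 in 18 Em-Ex cells and 4.93 in 6 YS-Ex cells.

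*Ctsl*, which encodes the lysosomal protease cathepsin L, showed the same direction. It ranged from 0 to 116 UMIs per 10,000 in Em-Ex (median 11.8) and from 4.41 to 200 in YS-Ex (median 36.7), and was 4.47-fold higher when pooled. *Ctsb* differed less, with medians of 27.6 and 49.8, and *Ctsd* had medians of 24.6 and 26.1. The matrix protein gene *Nov* was 5.18-fold higher in YS-Ex, with UMIs in 14 of 16 cells against 12 of 28. *Gpnmb* and *Maf* were 3.26-fold and 3.59-fold higher in YS-Ex, under the 4-fold limit. The beta-1 integrin gene *Itgb1* was 6.02-fold higher, with medians of 3.28 and 0.425, and was also higher in YS-Ex Cpa3-high cells, at 136 against 75.0 CPM. The linker histone gene *Hist1h1e* had UMIs in 2 of the 28 cells in Em-Ex but 10 of the 16 in YS-Ex, an Em-Ex to YS-Ex ratio of 0.0446 (0.0117 to 0.121). In Cpa3-high cells *Hist1h1e* was also higher in YS-Ex, at 183 against 16.0 CPM.

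In the other direction, *C1qb* was 3.54-fold (2.90 to 4.35) and *Cd74*, the class II invariant chain gene, 3.82-fold (2.28 to 6.80) higher in Em-Ex. *C1qb* had medians of 7.86 in Em-Ex and 1.30 in YS-Ex, or 21.0 in 18 Em-Ex and 11.6 in 6 YS-Ex cells among the C1q-positive cells, which its own level helped to choose, and in the Cpa3-high cells was at 23.3 CPM in Em-Ex and 6.77 in YS-Ex. *Cd74* had UMIs in 17 of the 28 cells in Em-Ex but 3 of the 16 in YS-Ex. Both were under the 4-fold limit. *Hbb-bt*, *Ccl5* and *Hdc* were past it, but 1 Em-Ex cell held 53.0%, 75.2% and 84.9% of their Em-Ex UMIs. *Fam162a*, a mitochondrial gene that responds to low oxygen, was 5.67-fold (3.26 to 10.7) higher, with UMIs in 23 of 28 and 8 of 16 cells. Some other macrophage genes differed little: *Fabp5* had a ratio of 0.978 (0.934 to 1.02), *Apoe* of 1.14 (1.03 to 1.26), *Trem2* of 1.14 (0.915 to 1.42) and *Ctss* of 0.882 (0.789 to 0.986). Others differed more, in both directions. Over all macrophage-like cells of each library, *Lpl* was at 451 CPM in Em-Ex and 1065 in YS-Ex. *Mmp12* was at 658 and 1424 CPM, and *Arg1* at 2506 and 1310 CPM.

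**Figure D4:**
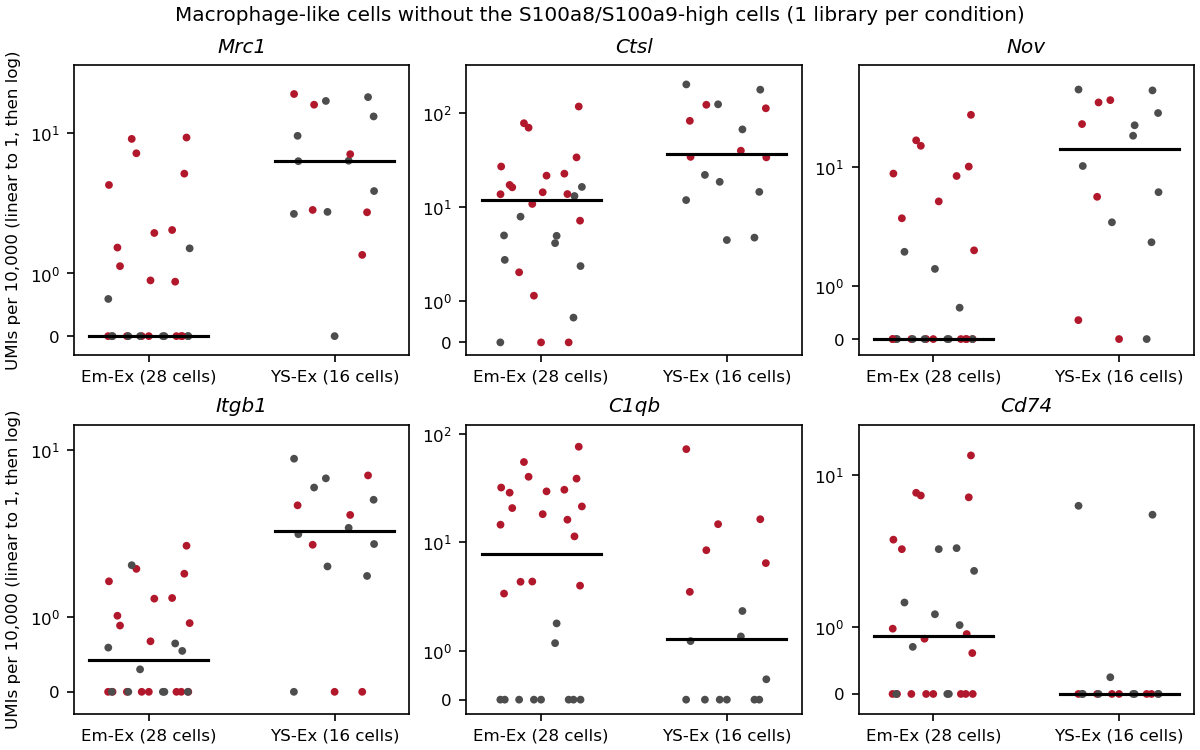
Each point is a macrophage-like cell outside the S100a8/S100a9-high subset, at its UMIs per 10,000 on an axis linear to 1 and logarithmic above, for 6 genes in Em-Ex (28 cells) and YS-Ex (16 cells); red points are C1q-positive cells and bars are medians. *Mrc1*, *Ctsl*, *Nov* and *Itgb1* have higher medians in YS-Ex, *C1qb* and *Cd74* have higher medians in Em-Ex, and the ranges overlap for all 6.

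The order of cells along the first principal component, fitted on 5575 genes in the 50 cells, took up 8.31% of the variance. At one end lay *S100a8*, *2010005H15Rik*, *Plac8*, *Coro1a* and *Fos*, and at the other *Fabp5*, *Gpnmb*, *C1qb*, *Ccl2*, *Ccl6*, *Ctsl* and *Ctsb*. The 6 S100a8/S100a9-high cells had the positions 14.5 to 23.4, above those of the other 44. *S100a8*, which helped to define these 6 cells, weighed most on the component, so their place was partly set by how they were picked. Among the other 44, the positions ran from -12.5 to 11.6, and the highest of them were the Em-Ex cells with *Col3a1* or *Hbb-bt*.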

How the data were processed

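Sorted cells of 1 Em-Ex and 1 YS-Ex library were profiled by 10x single-cell RNA-seq. The authors deposited UMI counts per gene and cell, without normalization, in 1 table. The submitters' processing notes name bcl2fastq 2.19.1.403, Cell Ranger 2.0.1 and mm10. Column names gave the library, with 0 columns unmapped. Barcodes with under 1000 genes or over 10% UMIs of the 13 mitochondrial genes were removed (52 of 3504 in Em-Ex, 168 of 3037 in YS-Ex). The deposited libraries held 48630888 and 34566242 UMIs. No doublet caller was run. Some genes are not reported here.

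Levels are UMIs per 10,000 of a cell, or pooled UMIs per 1000000 (CPM) with exact Poisson 95% intervals. Ratios have exact conditional 95% intervals, and 0.5 was added to counts before log2. Named genes were the rule and marker genes, list members, the 15 highest and 10 lowest ratios (at least 200 CPM on the higher side), the ends of each split and of the first principal component. The members and lists were chosen with earlier results of these data known. Steps ran in Python 3.11.15 with numpy 2.4.6, scipy 1.17.1 and pandas 2.3.3. The level and ratio step was tested on simulated pooled counts. These had no variation between cells, so the test does not cover genes that rest on few cells.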

Additional observations from a re-analysis of the deposited data

How the results depend on the processing

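The shares of both libraries, the numbers of S100a8/S100a9-high and C1q-positive cells and the numbers of genes past 4-fold were recomputed with other cell filters, limits and scalings. These counts and shares moved by over 1.5 times only where the call itself was changed: with a 2-fold limit 936 genes were higher and 587 lower, and with no minimum level 1158 were higher and 615 lower. Single values moved more often: 126 ratios of named genes left their counting interval and 378 did not, 68 list medians moved by 0.5 or more on the log2 scale and 493 by less, and 18 shares of cells left their interval at 2000 UMIs while 10 did not. With the limit on *Lyz2*, *Ctss* and *Spp1* at 10 or 40, the population held 62 or 42 cells. None of 141 list genes past 4-fold changed direction under the 18 alternatives run on them, and at most 9 fell under 4-fold. Leaving mitochondrial and ribosomal protein genes out of the total moved the median log2 ratio of all genes to -0.16. Alternatives without the S100a8/S100a9-high cells, without the 10 cells over both limits, in YS-Ex alone, without the 5 cells with other lineages' genes and for the C1q limit were chosen after seeing the data. No paired analysis was possible because each condition has 1 library. At 50 cells in all and a median of 12222 UMIs, a gene absent from a cell cannot be told from a gene that was missed.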

Other observations

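Genes that interferons induce were high in a few of the cells; these genes were picked after their values were seen. The sum of *Ifit1*, *Ifit3*, *Isg15*, *Rsad2* and *Irf7* was 0 to 160 UMIs per 10,000 over the 50 cells, with a median of 3.19. It was 10 or more in 11 cells, 7 in Em-Ex and 4 in YS-Ex, against 0.955% of Cpa3-high cells, whose median was 0. The cells with the highest sums were 1 C1q-positive Em-Ex cell at 160, 1 YS-Ex cell under the C1q limit at 79.6 and 1 S100a8/S100a9-high YS-Ex cell at 67.2.

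Among cells with a UMI of *Xist* or of a Y-chromosome gene, 7 of the 23 such Em-Ex macrophage-like cells and 3 of the 18 such YS-Ex cells had a Y-chromosome gene and no *Xist*. The shares were 30.4% (13.2% to 52.9%) and 16.7% (3.58% to 41.4%), and the Cpa3-high cells had 18.0% in Em-Ex and 33.7% in YS-Ex.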
